A study of Mus musculus with 6 samples.

Results

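Tmem176a and Tmem176b are neighbouring genes that encode small multi-pass membrane proteins related to the MS4A family, whose best known member is CD20. They were taken by symbol from the deposited count table, and both were found, 2 of 55291 gene symbols. Their levels were compared in ILC1s (innate lymphoid cells of type 1) and NK (natural killer) cells, both sorted from subcutaneous tumours of MC38, a C57BL/6 colon carcinoma cell line, in wild-type C57BL/6 mice 14 days after transplantation. Each cell type had 3 libraries, all mice carried the same tumour line, and the labels name neither the surface markers of the sort nor whether the 3 samples came from separate mice. The pair was chosen by its read counts in these 6 libraries, selected on the ILC1 to NK difference, so that difference is described here and not tested.

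TMEM176A and TMEM176B reside mainly in endosomal and lysosomal membranes, where TMEM176B can act as a cation channel. In mice both have been studied in dendritic cells, where they take part in presentation of antigen on MHC class II, and in lymphocytes that make interleukin-17. TMEM176B has also been described as a brake on the NLRP3 inflammasome. ILC1s and NK cells together form the group 1 innate lymphoid cells, which share the transcription factor T-bet (Tbx21) and the receptor NKp46 (Ncr1).

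On GRCm38 in GENCODE M21, Tmem176b (ENSMUSG00000029810.15) lies on the reverse strand of chromosome 6 from 48833818 to 48841496, and Tmem176a (ENSMUSG00000023367.14) on the forward strand from 48840919 to 48847071. Both are protein-coding, and they lie head to head with 578 bases of gene span in common. Their exons share 81 bases, which is 2.13% of the exon bases of Tmem176a and 3.42% of those of Tmem176b. Whether reads were counted by strand is not given in the sources used here, so reads from these bases may be lost or assigned to either gene. RefSeq gives Tmem176a starts at 48841483 and 48841656, and Tmem176b starts at 48840988, 48841137 and 48841374. The nearest starts of the 2 genes are thus 109 bases apart. The 108 bases between them, chr6:48841375-48841482 on the forward strand of GRCm38.p6 (RefSeq promoter windows), are shown because they lie before a start of each gene. The stretch lies within the bases that the GENCODE spans of both genes share. The 5′ end is on the Tmem176b side, and capitals mark an ETS core motif:
Tmem176b to Tmem176a: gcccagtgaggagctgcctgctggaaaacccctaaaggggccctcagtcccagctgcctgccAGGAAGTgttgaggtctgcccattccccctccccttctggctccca

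Of these bases 63.9% are G or C. Searching both strands, the ETS core AGGAAGT was found once, on the forward strand from base 63, and the stretch of the same length before 3.90% of 32851 RefSeq promoter starts holds it. The ROR half-site AGGTCA (6.34% of promoters), the T-box half-site GGTGTGA (1.32%), the RUNX site TGTGGT (6.06%), the AP-1 site TGANTCA (3.01%) and the GC box GGGCGG (25.5%) were not found in these letters. No motif match overlapped another. These matches describe the letters only.

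The libraries held 16931099 to 20224847 counts, at which 3 counts equal 0.144 to 0.174 CPM, the read count relative to library size after scaling by TMM factors, which correct for library composition. Tbx21 ran from 207 to 246 CPM in the ILC1 libraries and from 195 to 298 CPM in the NK libraries, and Eomes, a transcription factor of NK cells, from 68.4 to 170 CPM in the ILC1 libraries and from 361 to 562 CPM in the NK libraries. Libraries stood apart within each cell type, and over all genes they did not group by cell type: the log2 CPM of NK replicate 3 correlated with those of ILC1 replicates 1 and 2 at r = 0.977 and 0.971, and with those of NK replicates 1 and 2 at r = 0.880 each. NK replicate 3 and ILC1 replicates 1 and 2 were rich in fibroblast and matrix transcripts, and ILC1 replicate 3 in macrophage transcripts, so the pair is also given within and without these libraries. As an alternative fit, 3 library sets known from earlier results of these data entered as a term, namely the 3 matrix-rich libraries, the macrophage-rich ILC1 library, and the remaining 2 NK libraries. The difference between cell types then comes from the matrix-rich set alone, with 1 NK library.

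Tmem176a had 66.2, 65.9 and 103 CPM in ILC1 replicates 1 to 3, against 6.94, 8.52 and 11.6 CPM in NK replicates 1 to 3. The lowest ILC1 library was 5.67-fold above the highest NK library, so the cell types did not overlap. The raw counts were 1189, 1352 and 1769 in ILC1s and 139, 166 and 242 in NK cells, far above the limit of 3 counts. Group levels were 78.2 ± 21.1 CPM in the ILC1 libraries and 9.03 ± 2.38 CPM in the NK libraries (n = 3 each, mean ± SD). The fitted log2 fold change, ILC1 minus NK, was 3.11 ± 0.29 (SE, edgeR), an 8.65-fold difference.

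Tmem176b had 106, 116 and 171 CPM in ILC1 replicates 1 to 3, against 9.09, 14.2 and 20.3 CPM in NK replicates 1 to 3. Here too the cell types did not overlap, with the lowest ILC1 library 5.24-fold above the highest NK library. The raw counts were 1912, 2377 and 2958 in ILC1s and 182, 277 and 423 in NK cells. Group levels were 131 ± 35.1 CPM in the ILC1 libraries and 14.5 ± 5.62 CPM in the NK libraries (n = 3 each, mean ± SD), with a fitted log2 fold change of 3.17 ± 0.36 (SE), a 9.02-fold difference. In sorted bulk samples such a difference cannot tell more cells with the transcript from more transcript per cell.

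**Figure D1:**
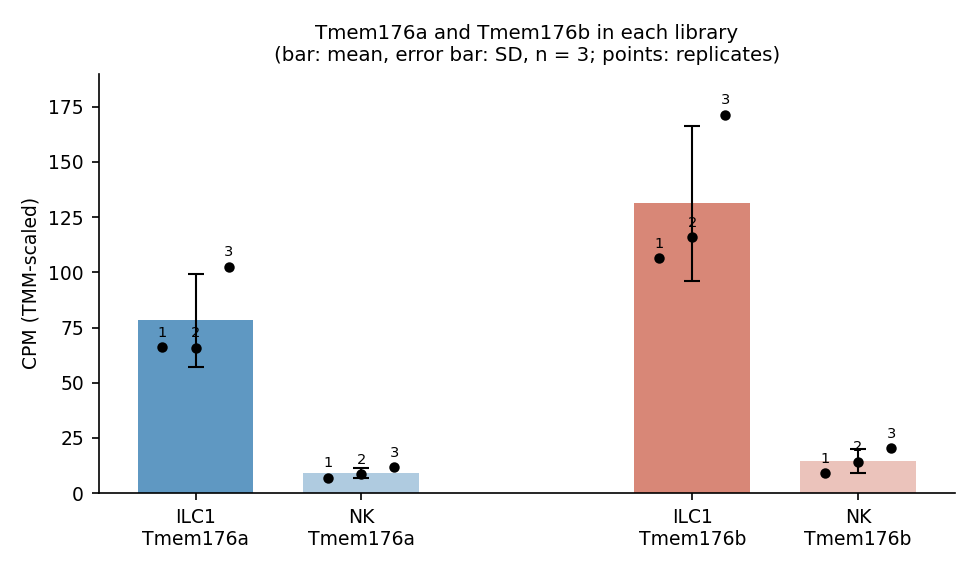
CPM of Tmem176a and Tmem176b in each library, with bars for the mean of 3 libraries, error bars for the SD, and numbered points for the replicates. The ILC1 libraries lie at 65.9 CPM or more for Tmem176a and 106 CPM or more for Tmem176b, above the NK libraries, which reach 11.6 and 20.3 CPM.

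Per kilobase, Tmem176b was the more abundant member in each of the 6 libraries. With the longest protein-coding transcript as the length (1540 bases for Tmem176a and 1648 bases for Tmem176b), the level of Tmem176b was 79.6 ± 21.3 CPM per kb in ILC1s and 8.83 ± 3.41 CPM per kb in NK cells. That of Tmem176a was 50.8 ± 13.7 CPM per kb in ILC1s and 5.86 ± 1.55 CPM per kb in NK cells. The gap depended on the length used. With all annotated exons joined (3810 bases for Tmem176a and 2371 bases for Tmem176b), Tmem176b reached 55.3 ± 14.8 CPM per kb in ILC1s and 6.13 ± 2.37 CPM per kb in NK cells, and Tmem176a 20.5 ± 5.53 CPM per kb in ILC1s and 2.37 ± 0.625 CPM per kb in NK cells.

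The reads of the pair were divided between its members in nearly the same way at high and at low levels. Tmem176b took 61.7, 63.7 and 62.6% of the pair's reads in ILC1 replicates 1 to 3, out of 3101, 3729 and 4727 reads. It took 56.7, 62.5 and 63.6% in NK replicates 1 to 3, out of 321, 443 and 665 reads. The lowest share, in NK replicate 1, also had the widest exact 95% binomial interval, 51.1 to 62.2%. The narrowest was 61.2 to 64.0% in ILC1 replicate 3. The intervals of all 6 libraries overlapped, but those of NK replicate 1 and ILC1 replicate 2 only just. The first ended at 62.19% and the second began at 62.18%. Overlap of such intervals does not show that the shares are equal. These intervals cover counting error only. As a ratio of reads, not corrected for length, Tmem176b per Tmem176a was 1.68 ± 0.0753 in ILC1s and 1.58 ± 0.234 in NK cells (n = 3 each, mean ± SD), a difference smaller than the spread among NK libraries.

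**Figure D2:**
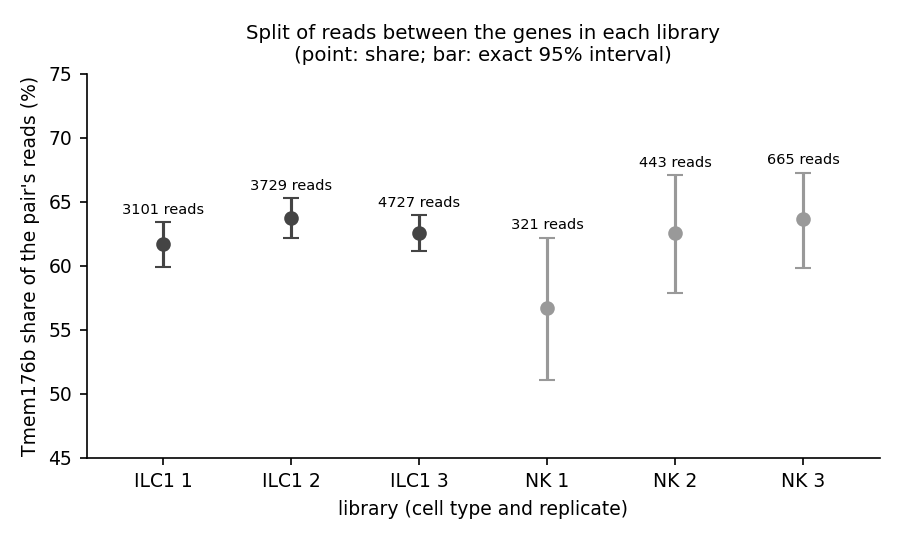
Share of the pair's reads that were assigned to Tmem176b in each library, in percent, with exact 95% binomial intervals and the number of reads of the pair above each point. All 6 intervals overlap, those of NK replicate 1 and ILC1 replicate 2 only just. The interval is widest in NK replicate 1, which had 321 reads.

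Within each cell type the members also varied alike from library to library. Relative to the ILC1 mean on the log2 CPM scale, Tmem176a deviated by -0.21, -0.21 and 0.42 in replicates 1 to 3, and Tmem176b by -0.27, -0.15 and 0.42. Relative to the NK mean, Tmem176a deviated by -0.34, -0.050 and 0.39, and Tmem176b by -0.60, 0.043 and 0.55. The sign was shared in 5 of 6 libraries, all but NK replicate 2, where both deviations were near 0. How often other genes share signs in this way was not counted. Both genes were highest in ILC1 replicate 3 among the ILC1 libraries, and in NK replicate 3 among the NK libraries. The members of a library share its TMM factor, which was 1.06, 1.03 and 0.854 in ILC1 replicates 1 to 3. Part of their shared deviation in the ILC1 libraries is thus a common shift by scaling. Relative to unscaled totals both were still highest in ILC1 replicate 3, by a smaller margin. Since the levels of the pair fall into separate ranges by cell type, no correlation over the 6 libraries is given.

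Likeness of 2 genes was measured as the SD, over the 6 libraries, of the log2 ratio of their CPM, which is 0 for genes in constant proportion. The SD between Tmem176a and Tmem176b was 0.16. Each was the gene most like the other among 8829 named genes with a mean of at least 10 CPM. The shared step between cell types, on which the pair was chosen, brings the members together in this measure, so the places are a description and support nothing. After its partner, Tmem176a was most like Krt83, a hair keratin gene (SD 0.33), Zfp683, which encodes the tissue residency factor Hobit (0.42), the fatty acid transporter family gene Slc27a6 (0.43) and the adhesion adaptor gene Cass4 (0.44). Tmem176b was most like Zfp683 (0.36), Krt83 (0.39), Cass4 (0.44) and the chemokine receptor gene Cxcr6 (0.52). Hence 3 of the 4 genes after the partner were shared by the lists. The order rests on few libraries. Without NK replicate 3, 1 of the 5 genes nearest to Tmem176a was retained, and Tmem176b was in place 2 for Tmem176a, as it also was without NK replicate 2. With Pearson correlation of log2 CPM as the measure, Tmem176b was again in place 2 for Tmem176a, and 2 of the 5 genes nearest to Tmem176a and 1 of the 5 nearest to Tmem176b were retained.

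Zfp683 stood at 50.6, 41.7 and 62.2 CPM in ILC1 replicates 1 to 3, against 2.65, 7.04 and 5.24 CPM in NK replicates 1 to 3. Krt83 stood at 22.6, 23.6 and 33.8 CPM in the ILC1 libraries, and at 2.95, 5.19 and 4.37 CPM in the NK libraries. For these and for Slc27a6, Cass4 and Cxcr6 the ILC1 libraries all lay above the NK libraries, as likeness to the pair requires, so no test is given. Like the pair, the 5 genes had their highest ILC1 level in replicate 3 in TMM-scaled CPM. The TMM factor was 0.854 in that library, against 1.06 and 1.03 in ILC1 replicates 1 and 2, which raises every CPM there. Relative to unscaled totals, Zfp683 and Slc27a6 were highest in ILC1 replicate 1, and Krt83, Cass4 and Cxcr6 still in replicate 3. Unlike the pair, Zfp683, Krt83 and Cass4 had their highest NK level in replicate 2 and not in replicate 3.

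**Figure D3:**
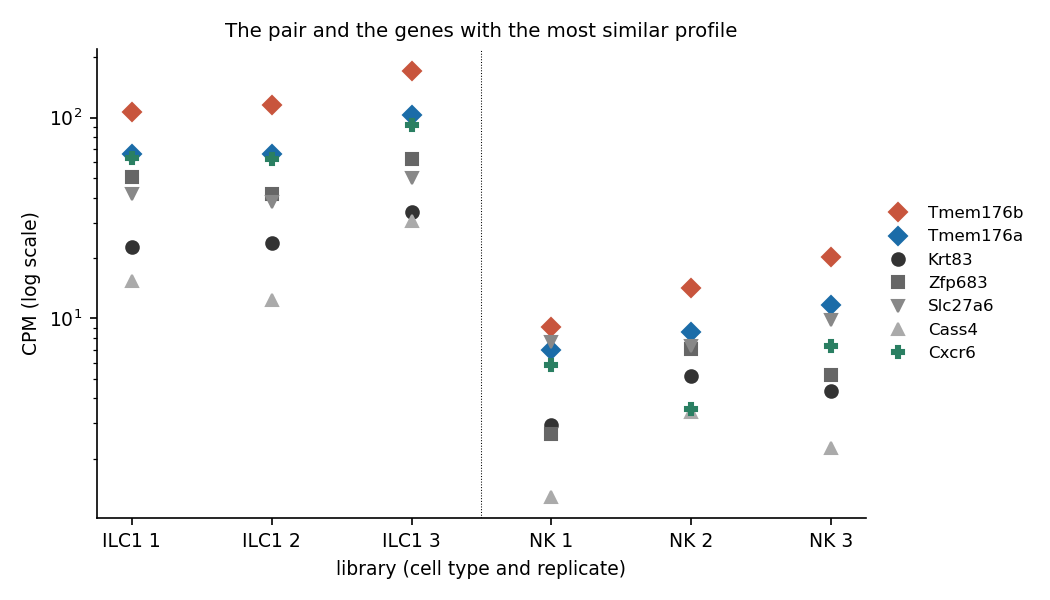
CPM on a log scale of Tmem176b, Tmem176a and the 5 other genes whose profiles were nearest to either of them, in each ILC1 and NK library. Tmem176b lies above Tmem176a in all 6 libraries, and the step between the cell types is larger than the spread within each.

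Most tested genes around the pair were lower in the ILC1 libraries, with 11 negative and 4 positive log2 fold changes. In 9 every ILC1 library lay below every NK library, and in 1, Gpnmb, above. The share of all tested genes without overlap is not given here. This and later counts of genes without overlap thus describe the members only. GENCODE M21 places 23 other protein-coding genes with a start within 300 kb, of which 22 were in the count table and 15 were tested. The quasi-likelihood test of edgeR, over 14475 genes, called 12 (0.0829%) at an adjusted p under 0.05 (Benjamini-Hochberg), of which 11 (0.076%) were higher and 1 (0.00691%) lower in ILC1s. Among the 15 neighbours 0 were called by edgeR or by limma-voom, although 9 had an unadjusted p under 0.05 by edgeR, all lower in ILC1s. Over all genes 15.8% had such a p, 6.95% higher and 8.82% lower. Counts at an unadjusted p for the lists that follow are to be read against these shares where they come from this fit over all 6 libraries. Without NK replicate 3, edgeR called 7 neighbours lower and 1 higher, in a fit that called 199 of 14973 genes lower and 250 higher. DESeq2, which called 8.35% of the 12184 genes it gave an adjusted p, 3.55% higher and 4.8% lower, called 8 of the neighbours lower. The median log2 fold change was -0.89, against 0.081 over all genes tested.

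The 8 lower calls of DESeq2 were the Gimap genes, which lie 63.0 to 187 kb from the pair on the Tmem176b side and encode GTPases of lymphocyte survival. Gimap4, the most abundant in reads, had 524, 499 and 505 CPM in ILC1 replicates 1 to 3, against 1274, 1183 and 788 CPM in NK replicates 1 to 3. Its log2 fold change was -1.09 ± 0.21 (SE, edgeR adjusted p = 0.127). Gimap6 had 355 ± 62.6 CPM in the ILC1 libraries and 921 ± 232 CPM in the NK libraries, Gimap3 307 ± 17.4 and 618 ± 151 CPM, and Gimap9 57.7 ± 6.96 and 160 ± 26.9 CPM in ILC1s and NK cells (n = 3 each, mean ± SD). For all 8 Gimap genes each ILC1 library lay below each NK library, with log2 fold changes from -1.47 to -0.85 and edgeR adjusted p from 0.0830 to 0.218. Without NK replicate 3, where edgeR called 199 of 14973 genes lower, it called 7 of the 8 lower. The median of the 8 Gimap genes was -0.69 once the library sets were fitted, against -1.10 over all libraries. Gm28053, a gene model that spans Gimap7, Gimap1 and part of Gimap5 and can share their reads, was the other neighbour with an unadjusted p under 0.05.

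On the Tmem176a side the nearest protein-coding gene, the amine oxidase gene Aoc1, had 1 count in 1 library. Gpnmb, a lysosomal glycoprotein gene of macrophages, was at 50.5, 62.5 and 57.8 CPM in ILC1 replicates 1 to 3, against 9.79, 6.21 and 44.3 CPM in NK replicates 1 to 3. Its log2 fold change of 1.50 ± 0.75 did not pass (edgeR adjusted p = 0.394). The mitochondrial ribosome factor gene Malsu1, at 15.8, 13.9 and 15.6 CPM in the ILC1 libraries, against 12.5, 19.7 and 13.0 CPM in the NK libraries, differed by less than its spread. On the far side of the Gimap genes, the zinc finger genes Repin1 (13.2 ± 1.74 and 10.8 ± 0.786 CPM in ILC1s and NK cells) and Zfp775 (5.15 and 5.50 CPM on average) did not pass either, with edgeR adjusted p = 0.546 and 0.924. Nor did Lrrc61, at 11.9 ± 1.45 CPM in the ILC1 libraries and 22.0 ± 15.2 CPM in the NK libraries (edgeR adjusted p = 0.425).

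**Figure D4:**
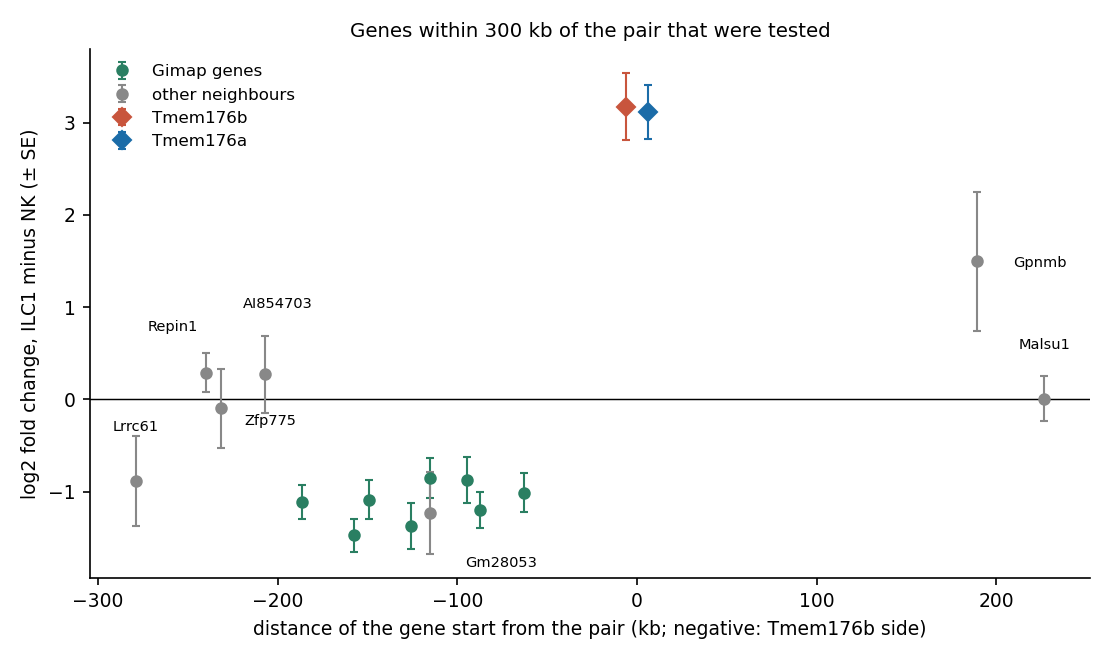
Log2 fold change (ILC1 minus NK, ± SE, edgeR) of the pair and of the 15 tested protein-coding neighbours against the distance of their start from the pair, in kb. The pair, drawn slightly apart at 0, sits at 3.17 and 3.11, while the 8 Gimap genes lie between -1.47 and -0.85.

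The relatives of the pair in the MS4A family differed in direction among themselves, with 7 positive and 3 negative log2 fold changes. Of 18 relatives, 10 were tested, 0 were called by edgeR and 5 had an unadjusted p under 0.05, 3 of them higher. DESeq2 called 2 lower and gave no adjusted p for 6. The median log2 fold change was 2.38, but -0.025 without ILC1 replicate 3 and 0.37 once the library sets were fitted. Ms4a4b, a relative expressed in T and NK cells, had 396, 408 and 326 CPM in the ILC1 libraries, against 1024, 917 and 698 CPM in the NK libraries (log2 fold change -1.22 ± 0.19, edgeR adjusted p = 0.104). Ms4a6d, a macrophage relative, had 7.74, 7.11 and 375 CPM in ILC1 replicates 1 to 3, against 3.15, 0.976 and 3.70 CPM in the NK libraries, so ILC1 replicate 3 alone stood far above the rest. Ms4a6b stood at 155 CPM and Ms4a4c at 161 CPM in that library. In ILC1 replicates 1 and 2 Ms4a6b had 61.7 and 60.3 CPM, against 98.4 to 142 CPM in the NK libraries, and Ms4a4c had 27.1 CPM in both, against 23.2 to 30.3 CPM in the NK libraries. The summed level of the pair in ILC1 replicate 3 was 1.51 to 1.59 times that of the other ILC1 libraries.

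The list of genes of interleukin-17-producing lymphocytes, in which the pair is known, held genes at or near the limit of detection and abundant ones. Il23r, Ccr6, Il17re, Il17a, Il17f and Il22 had at most 3 counts in each ILC1 library and at most 5 in each NK library. These 6 genes were named after their values were seen. Of the 12 genes of the list for such lymphocytes 5 were tested, 0 were called by edgeR (1 at an unadjusted p under 0.05) and DESeq2 called Rora higher. Rora, a nuclear receptor of innate lymphoid cells, had 48.4, 42.1 and 28.8 CPM in the ILC1 libraries, against 11.0, 6.62 and 18.2 CPM in the NK libraries (log2 fold change 1.74 ± 0.41, edgeR adjusted p = 0.168). The receptor genes Kit and Ahr, at 89.6 ± 15.9 and 92.3 ± 11.7 CPM in the ILC1 libraries, and at 102 ± 21.9 and 95.4 ± 10.0 CPM in the NK libraries, differed by less than their spread. Il1r1, the receptor gene of interleukin-1, had 12.9, 14.8 and 1.80 CPM in the ILC1 libraries, against 0.250, 0 and 10.8 CPM in the NK libraries (edgeR adjusted p = 0.743), high in the matrix-rich libraries of both cell types, and Maf had 38.5 ± 24.5 CPM in the ILC1 libraries and 25.7 ± 2.97 CPM in the NK libraries.

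ILC1 replicate 3 also stood apart in the genes of antigen presentation. The 14 genes of MHC class II presentation summed to 741, 713 and 15243 CPM in ILC1 replicates 1 to 3, against 411, 334 and 439 CPM in NK replicates 1 to 3. All 14 were tested and 0 were called by edgeR, with 9 at an unadjusted p under 0.05, all higher, and a median log2 fold change of 3.67. That median was 0.97 without ILC1 replicate 3 and 0.67 once the library sets were fitted. DESeq2 called 0 and gave no adjusted p for 12 of them. Cd74, the invariant chain, had 220, 181 and 4483 CPM in the ILC1 libraries, against 77.9, 53.8 and 95.1 CPM in the NK libraries. The class II chain genes H2-Aa and H2-Ab1, at 2223 and 2171 CPM in ILC1 replicate 3, stood at 86.1 to 98.0 CPM in the other ILC1 libraries, against 23.5 to 47.4 CPM in the NK libraries, and the protease gene Ctss at 2390 CPM in ILC1 replicate 3, 98.4 to 103 CPM in the others and 101 to 119 CPM in the NK libraries.

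The inflammasome list, with 12 of 14 genes tested, had 0 calls by edgeR, 3 at an unadjusted p under 0.05 and a median log2 fold change of 0.037. DESeq2 called 2 lower and gave no adjusted p for 1. These were Txnip, a regulator of glucose uptake and NLRP3, with 160 ± 36.3 CPM in the ILC1 libraries and 433 ± 146 CPM in the NK libraries, and the DNA sensor gene Aim2, with 84.9 ± 8.46 and 124 ± 15.8 CPM in ILC1s and NK cells (edgeR adjusted p = 0.154 and 0.199). The interleukin gene Il1b reached 4355 CPM in the third ILC1 library, where ILC1 replicates 1 and 2 had 125 and 98.8 CPM, against 17.8 to 96.3 CPM in the NK libraries. Nek7, an NLRP3 partner, had 110 ± 6.40 CPM in the ILC1 libraries and 113 ± 4.87 CPM in the NK libraries, a difference smaller than its spread. Of 21 genes of endolysosomal ion transport, 20 were tested and 0 were called by edgeR, with 3 higher and 2 lower at an unadjusted p under 0.05, and DESeq2 called 2 higher and 2 lower. The higher calls were the pump subunit gene Atp6v0a1 (17.4, 16.5 and 83.6 CPM in the ILC1 libraries, against 5.14, 1.85 and 12.3 CPM in the NK libraries) and the ATP-gated channel gene P2rx4 (8.57, 8.67 and 49.6 CPM, against 4.05, 3.34 and 6.10 CPM), both highest in ILC1 replicate 3. The lower calls were the endolysosomal channel gene Mcoln2, with 12.3 ± 2.85 CPM in the ILC1 libraries and 29.4 ± 4.16 CPM in the NK libraries, and the endosomal sodium-proton exchanger gene Slc9a9, with 39.5 ± 0.584 CPM in the ILC1 libraries and 70.6 ± 14.1 CPM in the NK libraries (edgeR adjusted p = 0.300, 0.280, 0.127 and 0.140 in the order named). The median of the list was 0.13, and the 4 most abundant members, the proton pump subunit genes Atp6v1a, Atp6v0a2 and Atp6v0d1 and the chloride exchanger gene Clcn3, had log2 fold changes between -0.30 and 0.39 with edgeR adjusted p from 0.357 to 0.756.

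Of the 10 group 1 identity genes, 5 lay wholly above in the ILC1 libraries (Cxcr6, Itga1, Zfp683, Cd200r1 and Il7r) and 4 wholly below (Eomes, Itga2, Klrb1c and Ncr1), while Tbx21 overlapped. Cxcr6 was called higher by edgeR (log2 fold change 3.70 ± 0.34, adjusted p = 0.0447), 9 of the 10 had an unadjusted p under 0.05, and DESeq2 called 5 higher and 4 lower. The edgeR call was lost, as were all others, without NK replicate 1, NK replicate 2, ILC1 replicate 1 or ILC1 replicate 2, when 0 genes passed. Limma-voom called 2 higher here and 0 in each of the other lists. The receptor genes Klrb1c and Ncr1 had 351 ± 11.0 and 347 ± 15.9 CPM in the ILC1 libraries, against 900 ± 257 and 570 ± 140 CPM in the NK libraries.

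Macrophage markers moved with ILC1 replicate 3, the ILC1 library in which the pair was highest. The 15 markers, all detected there, summed to 412, 305 and 14516 CPM in ILC1 replicates 1 to 3, against 267, 171 and 331 CPM in NK replicates 1 to 3, where Fcgr1 and Mertk were at 0 in replicate 1 and Mrc1 and Mertk in replicate 2. ILC1 replicate 3 thus held 35.3 and 47.6 times the macrophage signal of ILC1 replicates 1 and 2, and 1.59 and 1.51 times their summed level of the pair. Lyz2, the lysozyme gene of myeloid cells, reached 117, 94.2 and 5838 CPM in ILC1 replicates 1 to 3, against 29.8 to 92.6 CPM in the NK libraries, and Cd14, Apoe and Csf1r stood at 2562, 1013 and 1077 CPM in ILC1 replicate 3. Among the 15, edgeR called 0, with 8 at an unadjusted p under 0.05, all higher, a median log2 fold change of 4.69, and 0 calls by DESeq2, which gave no adjusted p for 13. The median of the list was 1.28 without ILC1 replicate 3, with 0 markers higher and 1 lower at an unadjusted p under 0.05, and 0.19 once the library sets were fitted. Of all genes, 2145 of 15089 had such a p without ILC1 replicate 3, in either direction. Without ILC1 replicate 3 the log2 fold changes of the pair were 2.85 for Tmem176a and 2.91 for Tmem176b.

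Fibroblast markers divided the NK libraries. The 11 markers summed to 1949, 2640 and 5964 CPM in ILC1 replicates 1 to 3, against 12.6, 19.6 and 1597 CPM in NK replicates 1 to 3, with Fn1 alone at 5896 CPM in ILC1 replicate 3. The collagen gene Col3a1 was at 472, 762 and 20.8 CPM in the ILC1 libraries, and at 0.350, 4.16 and 403 CPM in the NK libraries. Of the 10 tested, 0 were called by edgeR or DESeq2 and 0 had an unadjusted p under 0.05 by edgeR (median 1.60). Without NK replicate 3 the median was 6.56 and 9 of 10 markers were higher at an unadjusted p under 0.05, with 0 called by edgeR. In that fit 3980 of 14973 genes had such a p, in either direction. The log2 fold changes of the pair were then 3.34 for Tmem176a and 3.50 for Tmem176b. Within the matrix-rich libraries, where the macrophage sum was 412 and 305 CPM in ILC1 replicates 1 and 2, against 331 CPM in NK replicate 3, the mean of ILC1 replicates 1 and 2 exceeded NK replicate 3 by 5.68-fold for Tmem176a and 5.47-fold for Tmem176b. Fitted together with these library sets, the log2 fold changes were 2.505 for Tmem176a and 2.45 for Tmem176b.

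Dendritic cell markers summed to 1560, 1400 and 1544 CPM in the ILC1 libraries, against 2139, 2289 and 1452 CPM in the NK libraries, mostly from Irf8 and Itgax, which NK cells express as well. The conventional dendritic cell genes Xcr1, Clec9a and Clec10a were at 0 in NK replicates 1 and 2. Xcr1 had 2.45, 2.44 and 5.85 CPM in ILC1 replicates 1 to 3, against 0.288 CPM in NK replicate 3. Clec10a had 1.73, 1.75 and 22.3 CPM in the ILC1 libraries, against 1.35 CPM in NK replicate 3. Of the 10 dendritic cell markers tested, 6 had positive and 4 negative log2 fold changes. T cell markers summed to 420 to 546 CPM in the ILC1 libraries and 534 to 612 CPM in the NK libraries, mostly Trbc1 and Trbc2, and B cell markers to 303 to 442 CPM in the ILC1 libraries and 332 to 670 CPM in the NK libraries, mostly Ighm, with Pax5 at 0 in ILC1 replicate 3 and in all NK libraries. Neutrophil markers summed to at most 53.0 CPM in the ILC1 libraries and 25.5 CPM in the NK libraries, with Elane at 0 in all 6 libraries. The epithelial list reached 106 to 382 CPM in the ILC1 libraries and 16.8 to 33.2 CPM in the NK libraries. It consisted almost wholly of Cdh1 in the ILC1 libraries (97.5 to 377 CPM) and mostly of Cdh1 in the NK libraries (12.2 to 23.3 CPM). In these 5 lists edgeR called 0, although 3 dendritic, 6 T, 0 B, 0 neutrophil and 1 epithelial marker had an unadjusted p under 0.05. Of these, 2 dendritic markers, 5 T cell markers and the epithelial marker were higher in ILC1s, and the others lower. DESeq2 called 1 dendritic (Xcr1), 1 T cell (Cd8a) and 1 epithelial marker (Cdh1) higher. The median log2 fold change was 1.50 for dendritic, 0.77 for T, -0.36 for B, 0.93 for neutrophil and -0.39 for epithelial markers. The part of these lists in the difference of the pair was not tested.

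**Figure D5:**
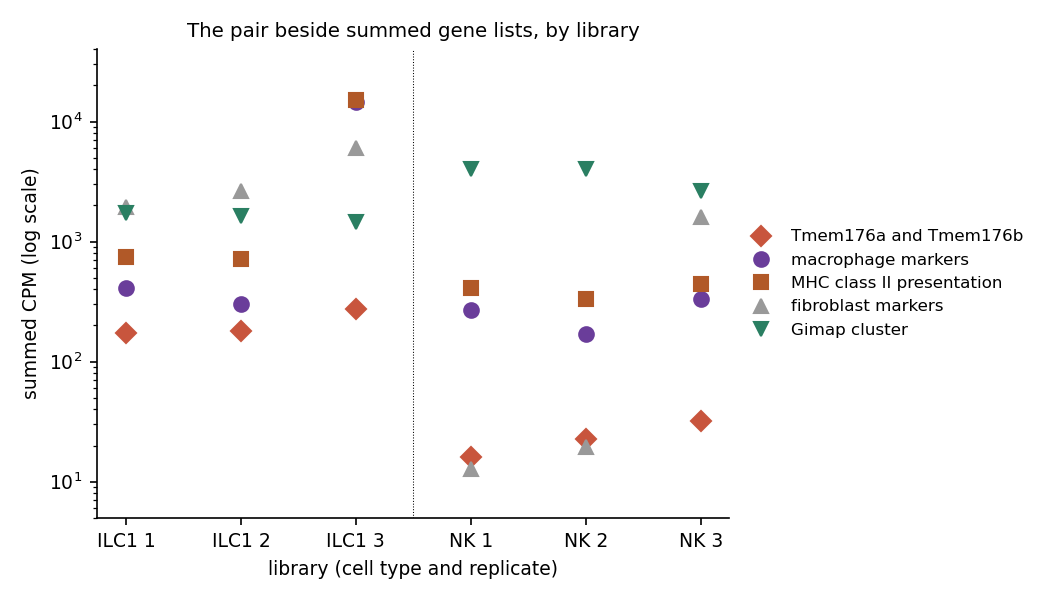
Summed CPM on a log scale of the pair and of 4 gene lists in each ILC1 and NK library. Macrophage and MHC class II genes peak in ILC1 replicate 3 and fibroblast genes are lowest in NK replicates 1 and 2, while the pair lies at 173 to 274 CPM in the ILC1 libraries and at no more than 31.9 CPM in the NK libraries.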

How the data were processed

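Poly(A)-selected RNA was read as single ends of 50 bases on a BGISEQ-500, per the labels' protocols. The authors deposited raw read counts for 55291 gene symbols in 6 libraries. Per the submitters' processing notes, HISAT2 2.1.0 and featureCounts 2.0.1 were used with GRCm38. Which annotation was counted, whether by strand, and what became of reads in overlapping genes is not given, and no molecular identifiers are described.

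From these counts CPM were computed with TMM-scaled library sizes, and log2 CPM with a prior count of 2. Genes were compared with edgeR 4.0.16 in R 4.3.3 (filterByExpr, TMM, robust quasi-likelihood fit with cell type as the only term, Benjamini-Hochberg adjustment over 14475 genes, threshold 0.05), after a trial on simulated counts. Replicates measure the spread between these samples, which may be technical. An exact permutation test of 3 against 3 libraries cannot give a two-sided p below 0.1. No pair of libraries was alike within counting noise (median chi-square per gene at least 2.42). Per-library shares have exact Clopper-Pearson 95% intervals.

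Positions come from GENCODE M21, promoter sequence from RefSeq (GRCm38.p6). Members, 14 gene lists and tests were chosen with earlier results of these data known. Named genes were the pair, protein-coding neighbours within 300 kb, the 4 members with the highest mean CPM in a list plus any called ones, and the 5 genes most like each member. Some are summarised only, and some list members are not reported here. The alternatives were other normalizations (RLE, upper quartile), filters (none, mean of 5 CPM), DESeq2 1.42.0, limma-voom (limma 3.58.1), a replicate block, library sets as a term, libraries left out and, for likeness, Pearson correlation.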

Additional observations from a re-analysis of the deposited data

How the results depend on the processing

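The log2 fold changes of Tmem176a and Tmem176b kept their sign under all 15 alternatives, from 2.46 to 3.34 for Tmem176a and from 2.41 to 3.50 for Tmem176b. With libraries left out in turn they ran from 2.85 to 3.34 and from 2.91 to 3.50. They moved by more than the spread between replicates with library sets as a term (2.505 and 2.45) and with NK replicate 3 and ILC1 replicates 1 and 2 alone (2.46 and 2.41), the second of which has 1 NK library, taken to vary as the ILC1 libraries do. Tmem176b per Tmem176a stayed within its spread without any library (1.64 to 1.72 in ILC1s, 1.49 to 1.71 in NK cells).

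Counts of called genes depended on the fit. Against 11 higher and 1 lower, there were 47 and 91 with no low-count filter, 432 and 585 by DESeq2, 16 and 17 with library sets as a term, 956 and 935 with the matrix-rich libraries alone, 2 lower with a minimum mean of 5 CPM and 2 lower by limma-voom. They ran from 0 (without NK replicate 1, NK replicate 2, ILC1 replicate 1 or ILC1 replicate 2) to 250 higher and 199 lower (without NK replicate 3). At an unadjusted p under 0.05 the fits with 0 calls had 1266, 1349, 2026 and 1507 genes. With the replicate block 0 were higher and 0 lower (1584 at an unadjusted p under 0.05), and the fold changes were 3.11 and 3.22. Same-numbered libraries did not deviate together (correlations across genes from -0.564 to -0.355). ILC1 replicates 1 and 2 deviated with NK replicate 3 (r = 0.486 and 0.567), and these are the matrix-rich libraries. The check therefore cannot tell whether the numbers pair the samples. Of the other values over lists and like genes, 584 stayed within the limits set and 123 moved. Among the 5 genes most like each member, 1 to 5 were retained. Tmem176a remained the gene most like Tmem176b in 8 of 8 alternatives, and Tmem176b was placed no lower than 2 for Tmem176a. With 321 to 665 reads of the pair in NK libraries, shares there are known to within several percentage points only.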
